A study of Mus musculus with 2 samples.

Results

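The genes described here build the motile cilium. They are the 53 of 55401 genes in the deposited tables whose symbol starts with Dnah, Dnaic, Dnal or Cfap followed by a number. The set holds 16 Dnah genes, 4 Dnaic or Dnal genes and 33 Cfap genes, lies on 18 chromosomes and follows a rule on symbols alone. Of the Dnah symbols, 1 is Dnah2os, an RNA antisense to Dnah2 and not a dynein chain.

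Single-cell RNA of C57BL/6J brains at an age of 10 weeks was counted. Mice of the metastasis group carried intracranial B16/F10-BrM cells, a mouse melanoma line, and the other group was naive. A group is 1 library, for which 3 brains had been pooled. Both were depleted of myelin and bead-enriched for ACSA-2 (the product of Atp1b2, found on astrocytes), so proportions of cell types are those of the enrichment and not of the brain. The record titles of the groups were swapped by the submitters at a later date, and the present ones are used. Pmel, a pigment gene of melanoma cells, checked them: it had 146878 unique molecular identifiers (UMIs) in 4117 of 13058 kept cells of the metastasis library and 3535 in 294 of 13106 of the naive library. With 1 library per group there is no replicate and no test between groups, so all intervals are 95% intervals that cover counting error only, and a gene counts as higher or lower by a rule of size, 1.5-fold.

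Motile cilia are whip-like projections that ependymal cells carry in tufts into the brain ventricles, where their beat moves cerebrospinal fluid. Each holds an axoneme, a ring of doublet microtubules around a central pair, and rows of outer and inner dynein arms on the doublets pull on the neighbouring doublet to bend it. Each arm is built on heavy chains, the Dnah motor proteins, held by intermediate and light chains (Dnaic, Dnal), while many Cfap proteins dock the arms, form radial spoke bases and central pair projections, or line the inside of the doublet wall. Transcription factors of the RFX and forkhead families, Foxj1 among them, are known to switch on such genes together, RFX proteins through the X-box.

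Promoter sequences show how far the members share letters of these factors' sites, and are given for 4 members of different roles. RefSeq promoters (GRCm38.p6) were matched for 44 of the 53 members. GTTGCC, the core of an X-box arm, occurred on either strand within 250 bases before the start in 14 of the 44 (31.8%), against 3195 of 27025 genes in the table (11.8%). TGTTTAC, a forkhead site, occurred in 3 members, Cfap20, Cfap43 and Dnah17 (6.82%), against 956 of all genes (3.54%). Only Cfap20 held both. A match is a description of letters, not a bound site. The sequences below are written 5′ to 3′ along the gene's strand, with GTTGCC or its reverse complement GGCAAC in capitals. Cfap161 encodes a protein of the doublet lumen, and its window, chr7:83794840-83794989 on the minus strand, holds 3 matches.
Cfap161: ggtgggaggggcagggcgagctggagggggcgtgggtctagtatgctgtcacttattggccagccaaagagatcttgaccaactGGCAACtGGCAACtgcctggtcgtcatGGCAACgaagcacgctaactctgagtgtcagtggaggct
Cfap44, a part of the tether of an inner dynein arm, has 2 matches in chr16:44394649-44394798 on the plus strand.
Cfap44: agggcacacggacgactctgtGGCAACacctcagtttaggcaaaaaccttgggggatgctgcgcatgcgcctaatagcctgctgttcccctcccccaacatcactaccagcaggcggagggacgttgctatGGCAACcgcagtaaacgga
Dnah10, an inner arm heavy chain, has 1 match in chr5:124724935-124725084 on the plus strand.
Dnah10: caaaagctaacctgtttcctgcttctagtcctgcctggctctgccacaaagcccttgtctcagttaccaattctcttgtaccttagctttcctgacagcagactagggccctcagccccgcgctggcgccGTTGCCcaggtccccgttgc
Cfap298, a factor needed to assemble dynein arms, has 4 matches, arranged as a pair of near-copies, in chr16:90934850-90935049 on the minus strand.
Cfap298: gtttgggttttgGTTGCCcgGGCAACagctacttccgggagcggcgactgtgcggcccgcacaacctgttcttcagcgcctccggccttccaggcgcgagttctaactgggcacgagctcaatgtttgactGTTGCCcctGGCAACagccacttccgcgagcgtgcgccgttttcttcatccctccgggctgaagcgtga
Of the 4, Cfap298 was the least limited to ependymal-like cells: the level there over that of the highest other class was 7.68-fold for Cfap161, 7.68-fold for Cfap44, 6.46-fold for Dnah10 and 2.69-fold for Cfap298.

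The files held 89193669 UMIs in metastasis and 69445557 in naive. Barcodes were kept from 1000 UMIs and 500 genes upward, with up to 20% mitochondrial UMIs. Kept cells had medians of 2823 and 2764 UMIs. Of their barcodes, 48 occurred in both libraries, among them 11 and 12 ependymal-like cells. Leaving out those cells moved none of the 6 main results given in the closing section beyond its counting interval. Clusters were named from markers, with all members and the lists of related cilia genes left out of the genes used to cluster. Ependymal-like cells were clusters 2, 3, 14 and 15, with 2311 cells in metastasis and 3195 in naive. All 15 ependymal markers found in the files had UMIs there in both libraries, 19459 and 21132 CPM (UMI counts scaled to a common total) in sum, and Rax, which defines tanycytes, was at 0. Of the other lists, astrocyte markers summed to 2447 and 2466 CPM, and choroid plexus markers to 6341 and 10602, the latter below their 79811 and 219013 CPM in free RNA, the RNA of barcodes with 10 to 100 UMIs. Cluster 15 had the weakest ependymal name. All 15 markers were at least 2-fold up, but their median log2 fold was 1.67, against 2.61 to 2.81 in the other ependymal-like clusters. Red blood cell markers came second, at 1.25. Its 10 leading genes held 0 ependymal markers and included the members Dnah12, Cfap65, Dnah6, Cfap46, Dnah3 and Cfap44.

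Ependymal-like cells held the highest summed level of the members, and the family took the same share of their RNA in both libraries. The 53 genes summed to 80623 UMIs in metastasis, 9962 CPM (9893 to 10031), and to 128911 UMIs in naive, 9959 CPM (9905 to 10014). These genes thus gave 0.996% of all UMIs of ependymal-like cells in each library. Dnah genes gave 2541 and 2561 CPM, the Dnaic and Dnal genes 578 and 598, and the Cfap genes 6842 and 6799 CPM.

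In every other named class the members summed to less than in free RNA, where they stood at 1643 CPM in metastasis and 2299 in naive. Those free RNA levels come from 422 and 624 member UMIs among 256869 and 271390 UMIs. The free RNA level of a single member thus rests on few UMIs and is given without an interval. The oligodendrocyte-like cells, which have no motile cilia, summed to 467 CPM in both libraries. Astrocyte-like cells summed to 800.3 and 761 CPM, olfactory ensheathing-like cells to 778 and 789, microglia-like cells to 621 and 644, and neuroblast-like cells to 863 and 1112. Choroid plexus epithelium-like cells, which line the ventricles beside the ependyma, summed to 1080 CPM (1045 to 1116) and 965 (943 to 988). Endothelial-like, mural-like, T/NK-like and fibroblast-like cells lay between 413 and 528 CPM in metastasis and between 533 and 1578 in naive. Clusters left without a name held 1881 cells in metastasis (14.4% of kept cells) and 342 in naive (2.61%). Their members summed to 297 and 577 CPM. Among them was cluster 4 (1488 and 72 cells), whose nearest marker list was that of macrophages and monocytes, so no named class covers those cells. Free RNA made up an estimated fraction of 0.155 of the UMIs of ependymal-like cells in metastasis and 0.210 in naive, the median over marker lists of other classes. The choroid plexus markers given above stood lower in ependymal-like cells than these fractions of their free RNA level. For that list the fractions are thus too high, and they are rough estimates. No such fraction was estimated in the other classes, so how much of their totals was free RNA was not tested. A total below that of free RNA does not show that it came from free RNA. In choroid plexus epithelium-like cells, Dnah5 stood at 9.37% and 1.68% of its free RNA level, while 5 members stood at or above theirs in both libraries.

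**Figure D1:**
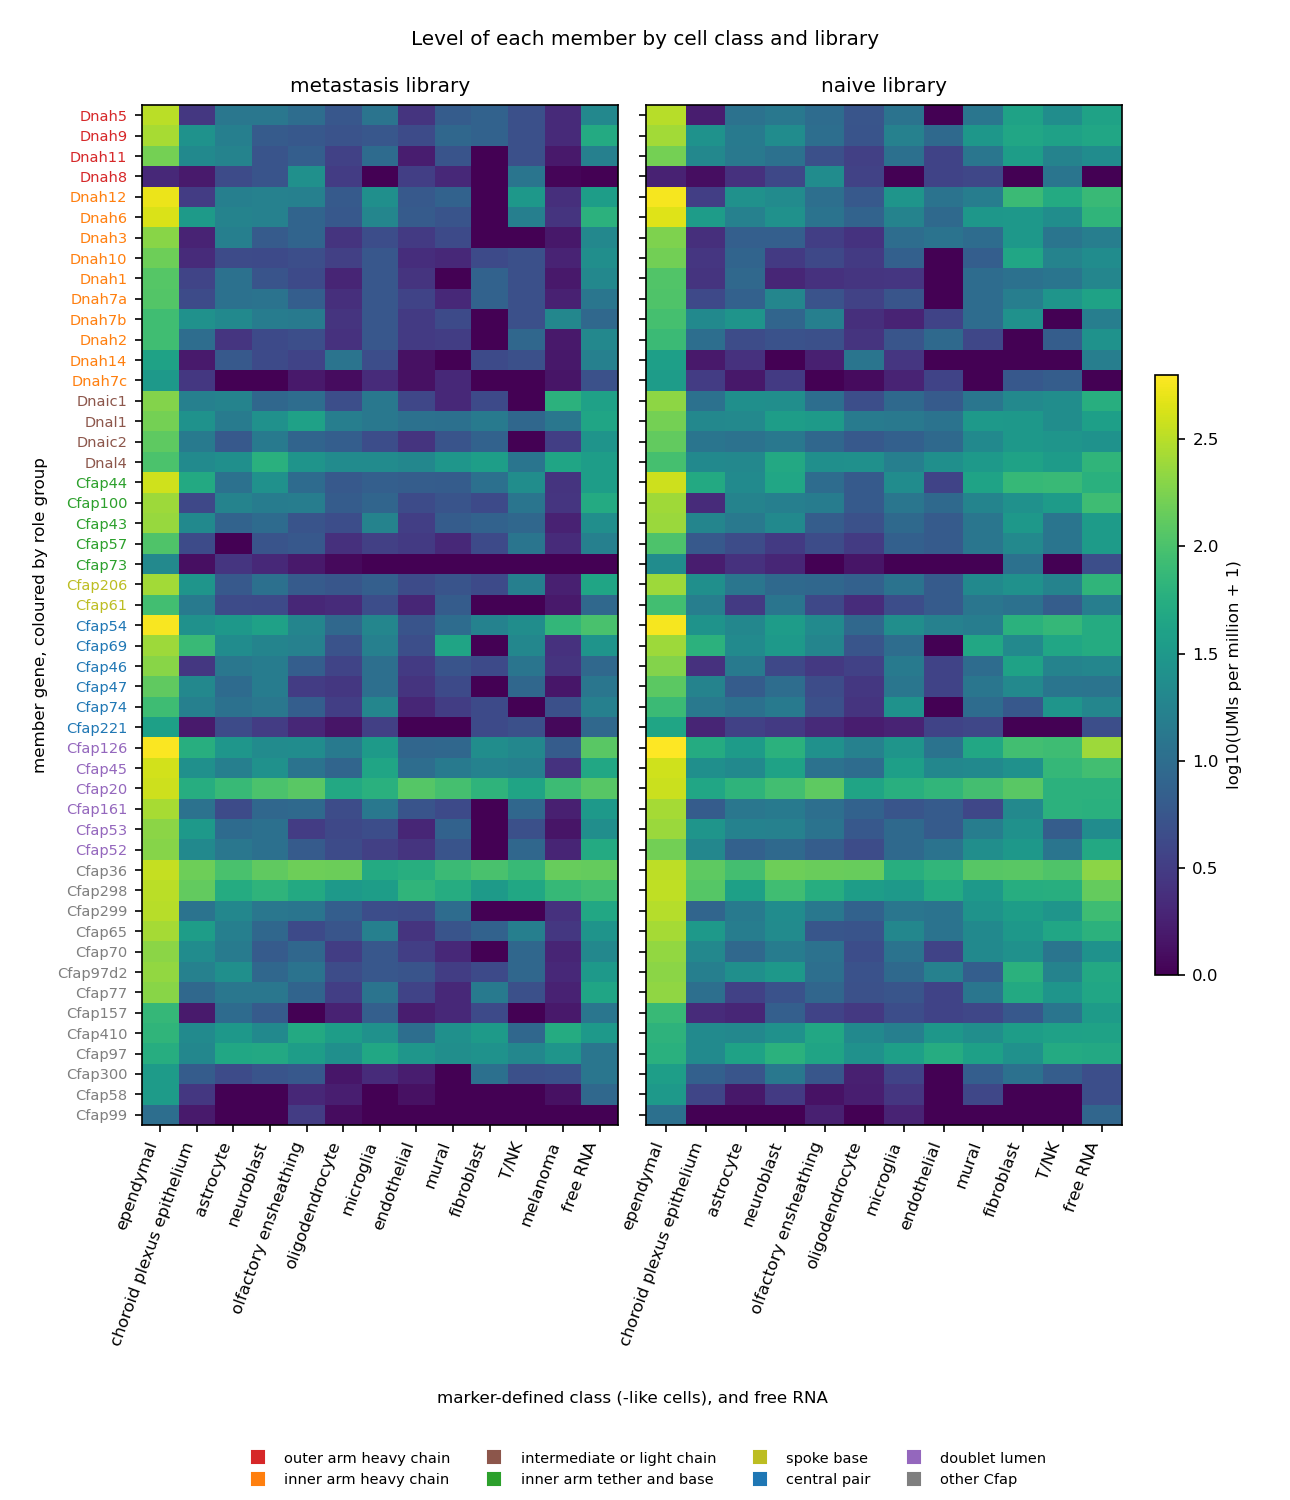
Level of each of the 50 members with at least 20 UMIs in ependymal-like cells (rows, coloured by role) in each marker-defined class and in free RNA (columns), as log10 of CPM plus 1, for each library. The ependymal-like column is brightest for nearly all rows, and Cfap36, Cfap298, Cfap20, Cfap97, Cfap410 and Dnal4 are also visible in other classes.

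Most ependymal-like cells held several members each. Whether members shared cells more often than their summed level implies was not tested. After every cell was thinned to 1000 UMIs, 99.9% of ependymal-like cells in metastasis and 3194 of 3195 in naive held at least 1 UMI of a member, with a median of 8 different members and a maximum of 19 in both libraries. Without thinning, the medians were 19 and 20 members. Among thinned oligodendrocyte-like cells, 35.7% and 36.6% held a member UMI, with a median of 0 members. Choroid plexus epithelium-like cells had 63.3% and 61.2%, with a median of 1.

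Of the 53 members, 50 had at least 20 UMIs in ependymal-like cells of both libraries together. The other 3 were Dnah17, a heavy chain of sperm flagella (0 UMIs in metastasis and 1 in naive), Dnah2os (1 and 1) and Cfap97d1 (4 and 2). Of the 50, 49 were higher in ependymal-like cells than in all 10 other named classes that held 50 cells or more per library, by the mean of the libraries. The exception was Dnah8. In naive alone, Cfap97 stood at 59.7 CPM in neuroblast-like cells and 59.3 in ependymal-like cells. In 36 of the 50, the ependymal-like level was at least 5-fold that of each of these 10 classes. Melanoma-like cells, nearly all in 1 library, are not among the 10, and they held 1 of the 36, Dnaic1, at 33.0% of its ependymal-like level. The folds were smallest for Cfap97 (1.06), Cfap410 (1.36), Dnal4 (1.84), Cfap36 (2.35), Cfap298 (2.69) and Cfap20 (3.05).

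The outer arm heavy chains of brain cilia were Dnah5, Dnah9 and Dnah11. Levels below are CPM in ependymal-like cells. Each UMI tags 1 transcript near its 3′ end, so levels are not divided by length, and members can still differ in how well their 3′ end is captured. Dnah5, the heavy chain present along the whole outer arm row, spans chr15:28203752-28472052 on the plus strand (GENCODE M21, GRCm38), with 79 exons in its longest transcript. Dnah5 stood at 323.7 CPM in metastasis (311 to 336, 2620 UMIs) and 311 in naive (302 to 321, 4027 UMIs). Dnah9, the partner chain of the distal part of the cilium, stood at 267 and 259 CPM. Dnah11, the partner chain near the base, was lower, at 164 and 163 CPM. Dnah8 and Dnah17 are the corresponding chains of sperm, and Dnah8 had 9 and 11 UMIs. The pattern of 3 detected and 2 nearly absent chains was the same in both libraries.

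Inner arm heavy chains covered a wider range. Dnah12, on chr14:26693274-26891703 on the plus strand, was the highest Dnah gene, at 520.3 CPM in metastasis (505 to 536, 4211 UMIs) and 577 in naive (564.2 to 590.4, 7471 UMIs). Dnah6 followed with 440 and 454 CPM, and then Dnah3 with 202 and 180.4. Dnah10 and Dnah2, the pair of heavy chains of the only inner arm with 2 motors, stood at 152 and 158 CPM and at 85.7 and 80.7 CPM. Dnah2 was thus the lower of the pair in both libraries. Dnah1 stood at 114 and 108 CPM, and Dnah14 at 40.3 and 37.0. Dnah7a, Dnah7b and Dnah7c are near-identical copies on chromosome 1, Dnah7b and Dnah7c side by side, at 111 and 105, at 87.0 and 92.5, and at 32.0 and 33.9 CPM, and the authors' counting could have split their reads, so their separate levels are uncertain.

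The intermediate and light chains lay close together. Dnaic1 and Dnaic2, the intermediate chains that anchor the outer arm, stood at 190 and 209.6 CPM and at 125 and 132 CPM. Dnal1, a light chain bound to an outer arm heavy chain, stood at 162 CPM in both libraries. Dnal4, a light chain that other cells also use, stood at 100.6 and 94.3 CPM in ependymal-like cells and at 58.3 and 47.6 in neuroblast-like cells.

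Among proteins of the inner arm tether and base, Cfap44 was the highest, at 397 CPM in metastasis (383 to 411, 3213 UMIs) and 382 in naive (372 to 393, 4949 UMIs). Its partner in the tether, Cfap43, stood at 233 and 237 CPM. The annotation places 24686 bases of Cfap43 over Itprip on the same strand, so reads there could belong to either. Cfap100 stood at 242 and 249.7 CPM, while Cfap73, which works with Cfap100 in a complex at the inner arm base, stood at 19.8 and 22.02. Cfap57 stood at 106 and 102. The radial spoke base genes Cfap206 and Cfap61 stood at 255 and 247 and at 89.0 and 88.9 CPM.

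Central pair genes were led by Cfap54, at 593 CPM in metastasis (577 to 610.5, 4803 UMIs) and 581 in naive (568 to 594, 7516 UMIs). Cfap69 followed at 243 and 246 CPM, Cfap46 at 198 and 190.4, Cfap47 at 129 and 123, Cfap74 at 85.01 and 79.6, and Cfap221 at 38.3 and 43.6. Among genes of the doublet lumen, Cfap126 was the highest member of the whole family, at 602 CPM in metastasis (585 to 619, 4869 UMIs) and 624 in naive (610.3 to 638, 8075 UMIs). Cfap45 stood at 402 and 395 CPM, Cfap20 at 385 and 372, Cfap161 at 269 and 264, Cfap53 at 206 and 236, and Cfap52 at 195 and 159. Cfap20 is also part of centriolar structures, and olfactory ensheathing-like cells held it at 121 and 127 CPM.

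Of the remaining Cfap genes, Cfap36, Cfap298 and Cfap299 were the highest, at 358 and 334, at 326 and 338, and at 313 and 309 CPM. Cfap299 overlaps 1050 bases of the predicted gene Gm11111 on the same strand. Cfap65, known for sperm and ciliary function, stood at 262 and 261 CPM. Cfap97d2, Cfap70 and Cfap77 lay between 199 and 220.1 CPM in both libraries, and Cfap157, Cfap410, Cfap97, Cfap300, Cfap58 and Cfap99 between 9.27 and 76.6. Cfap126 and Cfap99 thus marked the ends of the range of the 49 members with at least 100 UMIs.

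The first comparison asked whether ependymal-like cells of the metastasis library held less or more of these transcripts than those of the naive library. They held the same summed level, a log2 ratio of 0.00 (-0.01 to 0.01), and 0 of 50 members passed 1.5-fold in either direction. Over all 16321 genes with at least 20 UMIs, 4.66% were lower and 7.01% higher by that rule. The median log2 ratio of the 50 members was 0.02, against 0.03 over all genes. Role groups ranged from -0.05 for the summed intermediate and light chains (578 and 598 CPM) to 0.04 for the summed outer arm heavy chains (757 and 734 CPM).

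The members with the largest differences were still close between libraries. Cfap52 was higher in metastasis, at 195 against 159 CPM, a log2 ratio of 0.29 (0.20 to 0.39). Its level was also higher in metastasis within cluster 3 (0.35, 0.16 to 0.54), cluster 14 (0.33, 0.17 to 0.49) and cluster 15 (0.43, 0.07 to 0.79), and in cells without an interferon gene (0.35, 0.21 to 0.49). The Cfap52 difference thus had the same direction in each of these cell groups, which all rest on the same pair of libraries. Dnah3 had a log2 ratio of 0.16 (0.07 to 0.25), Dnah14 of 0.12 (-0.09 to 0.33) and Cfap58 of 0.12 (-0.11 to 0.34).

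On the lower side, Cfap53 stood at 206 against 236 CPM, a log2 ratio of -0.20 (-0.29 to -0.11), and in cluster 15 at -0.60 (-0.94 to -0.28). Cfap221 had a log2 ratio of -0.19 (-0.39 to 0.02), Cfap73 of -0.16 (-0.44 to 0.13) and Dnah12 of -0.15 (-0.20 to -0.09). Dnah8 had a ratio of 0.39 from 9 and 11 UMIs, with an interval of -1.06 to 1.80 that leaves its direction undetermined. Cfap52 and Cfap53, both of the doublet lumen, thus stood at opposite ends of the range once Dnah8, with its few UMIs, is set aside.

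**Figure D2:**
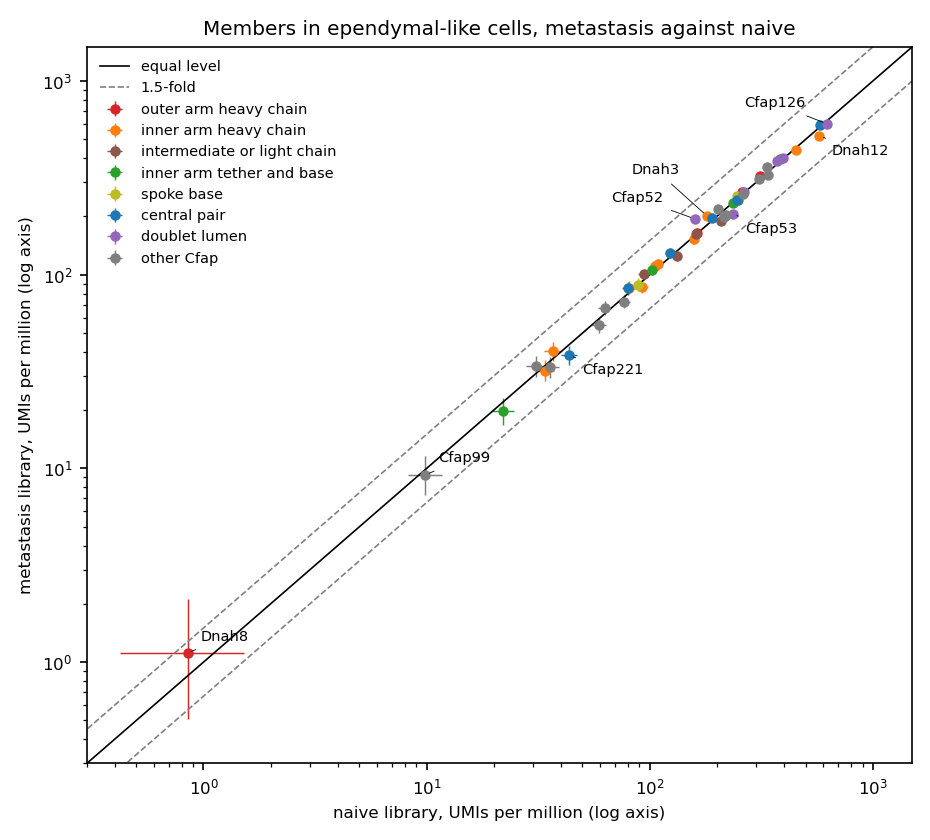
Level of each of the 50 members in ependymal-like cells of the naive library (x axis) and of the metastasis library (y axis), in CPM on log axes, with 95% counting intervals. The line marks equal levels and the dashed lines 1.5-fold; all 50 points lie between the dashed lines.

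Other genes of the same machinery also stayed within the rule of size, though some differed more than the well-counted members. No gene with at least 20 UMIs in 11 lists of axonemal, transport, regulator and dynein genes passed 1.5-fold. Medians ranged from -0.11 for tektins and other doublet proteins (15 genes) to 0.06 for cytoplasmic dynein 1 (9 genes), and the regulator list had a median of -0.09 over 11 genes. Foxj1, a master regulator of motile cilia, stood at 667 against 607 CPM, a log2 ratio of 0.13 (0.08 to 0.18). Rfx2 was at -0.09 (-0.25 to 0.06), Rfx3 at -0.12 (-0.24 to 0.00) and Rfx4 at -0.43 (-0.57 to -0.30). Among non-member dynein genes, the inner arm light chain Dnali1 was at -0.20 and Dynlrb2 at -0.21, the cytoplasmic motor Dync1h1 at 0.17 and the transport motor Dync2h1 at 0.08. The lowest value of these lists among genes with at least 100 UMIs was that of Tekt2, at -0.49 (-0.85 to -0.14), from 98 and 220 UMIs.

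Interferon genes moved in the same cells. All 51 genes of a list of interferon and MHC class I genes were higher in metastasis by the rule of size, where 7.01% of all genes were. Their median log2 ratio was 3.63, and they summed to 10622 against 1862 CPM. The list was chosen with earlier results of these data known. Of the 3 genes used to split the cells, Ifit3, an antiviral effector, stood at 328 against 28.0 CPM, Igtp, a GTPase induced by interferon gamma, at 217 against 9.35, and Gbp2, a guanylate-binding protein, at 370.2 against 44.0. A cell was called "with" if it had at least 1 UMI of any of the 3. In metastasis, 1276 of 2311 ependymal-like cells were with (55.2%, 53.2 to 57.3) and 1035 without. In naive, 626 of 3195 were with and 2569 without.

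Within the metastasis library the members held nearly the same level in cells with and without an interferon gene. They summed to 9879 CPM in cells with (9794 to 9965) and 10109.5 in cells without (9994 to 10226), a log2 ratio of -0.03 (-0.05 to -0.01). This small ratio depended on the scaling. It was -0.0167 (-0.0374 to 0.0041) with totals without the interferon list and -0.0216 (-0.0603 to 0.0171) in cells thinned to 1000 UMIs. Scaled to 12 ubiquitous genes, it was -0.0566 (-0.0773 to -0.0358). Of 49 members with at least 20 UMIs, 0 passed 1.5-fold. Over all 13862 genes, 5.27% were lower and 5.43% higher. In naive, the sums were 9925 and 9975 CPM, and again 0 of 49 passed, where 5.59% of 14851 genes were lower and 4.02% higher. Between the libraries, 0 of 49 members passed among cells with (5.68% of all genes lower, 8.22% higher in metastasis) and 0 of 49 among cells without (5.03% and 6.96%). Thinned to 1000 UMIs, cells with and without held a median of 8 members in metastasis, and 9 and 8 in naive.

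The groups were not alike in other measures, whose part in these ratios was not tested. Cells with an interferon gene were deeper, with medians of 3366.5 against 2543 UMIs in metastasis and 4368.5 against 2925 in naive. In metastasis, choroid plexus markers summed to 5542 CPM in cells with and 7772 in cells without, oligodendrocyte markers to 2130 and 2745, and red blood cell markers to 149.97 and 445. All markers of the first 2 lists had UMIs in both groups, and Alas2 of the last was at 0 in cells with. Cluster 15, a cluster of low depth described below, gave 135 of the 1276 cells with and 359 of the 1035 cells without. Among cells of 2000 to 5000 UMIs alone, the summed log2 ratio of the members was 0.00107 (-0.03 to 0.03).

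By role, inner arm heavy chains were lower in cells with an interferon gene in metastasis, 1706 against 1923 CPM, a log2 ratio of -0.17 (-0.22 to -0.12), and in naive, 1780.4 against 1849 CPM, -0.05 (-0.10 to -0.01). Within cluster 14 of metastasis the inner arm ratio was -0.09 (-0.18 to 0.01), in cluster 3 it was -0.13 (-0.25 to -0.02), and in clusters 3 and 14 of naive it was 0.00 (-0.06 to 0.07) and 0.02 (-0.03 to 0.08). The outer arm heavy chains went the other way, at 768 against 738 CPM in metastasis (0.06, -0.02 to 0.13) and 792 against 707 in naive (0.16, 0.10 to 0.23). Within cluster 3 the outer arm ratios were 0.19 (0.02 to 0.35) in metastasis and 0.26 (0.17 to 0.36) in naive, and within cluster 14 they were 0.15 (0.00 to 0.29) and 0.15 (0.06 to 0.24). In cluster 15 of metastasis it was -0.23 (-0.49 to 0.02).

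Dnah5 carried much of the outer arm difference. It stood at 337 CPM with and 299 without in metastasis, a log2 ratio of 0.17 (0.06 to 0.29), and at 348 and 294 in naive, 0.24 (0.15 to 0.33). Within cluster 3 the Dnah5 ratio was 0.30 (0.04 to 0.55) in metastasis and 0.27 (0.12 to 0.42) in naive. Within cluster 14 it was 0.05 (-0.17 to 0.26) and 0.22 (0.08 to 0.36). The Dnah5 ratio was thus above 0 in both libraries, at sizes far below 1.5-fold.

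The lowest ratios in metastasis were those of Dnah7c at -0.47 (-0.84 to -0.10), Dnah7b at -0.36 (-0.58 to -0.14), Dnah12 at -0.28 (-0.37 to -0.19) and Cfap43 at -0.27 (-0.40 to -0.13). Dnah12 stood at 484 CPM with and 586 without there, and at 561 and 585 in naive (-0.06, -0.13 to 0.01). The highest were Cfap74 at 0.26 (0.02 to 0.50), Cfap77 at 0.25 (0.09 to 0.40), Cfap58 at 0.22 (-0.15 to 0.61) and Cfap410 at 0.21 (-0.06 to 0.47). In naive, the lowest were Cfap99 at -0.40 (-1.02 to 0.19), Cfap65 at -0.22 (-0.33 to -0.11), Cfap73 at -0.21 (-0.60 to 0.17) and Cfap53 at -0.20 (-0.32 to -0.09). The highest in naive were Dnah5, Cfap57 at 0.23 (0.07 to 0.40), Cfap77 at 0.22 (0.11 to 0.33) and Cfap43 at 0.18 (0.08 to 0.29). Cfap77 was thus among the 4 highest in both libraries, while Cfap43 stood at opposite ends.

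**Figure D3:**
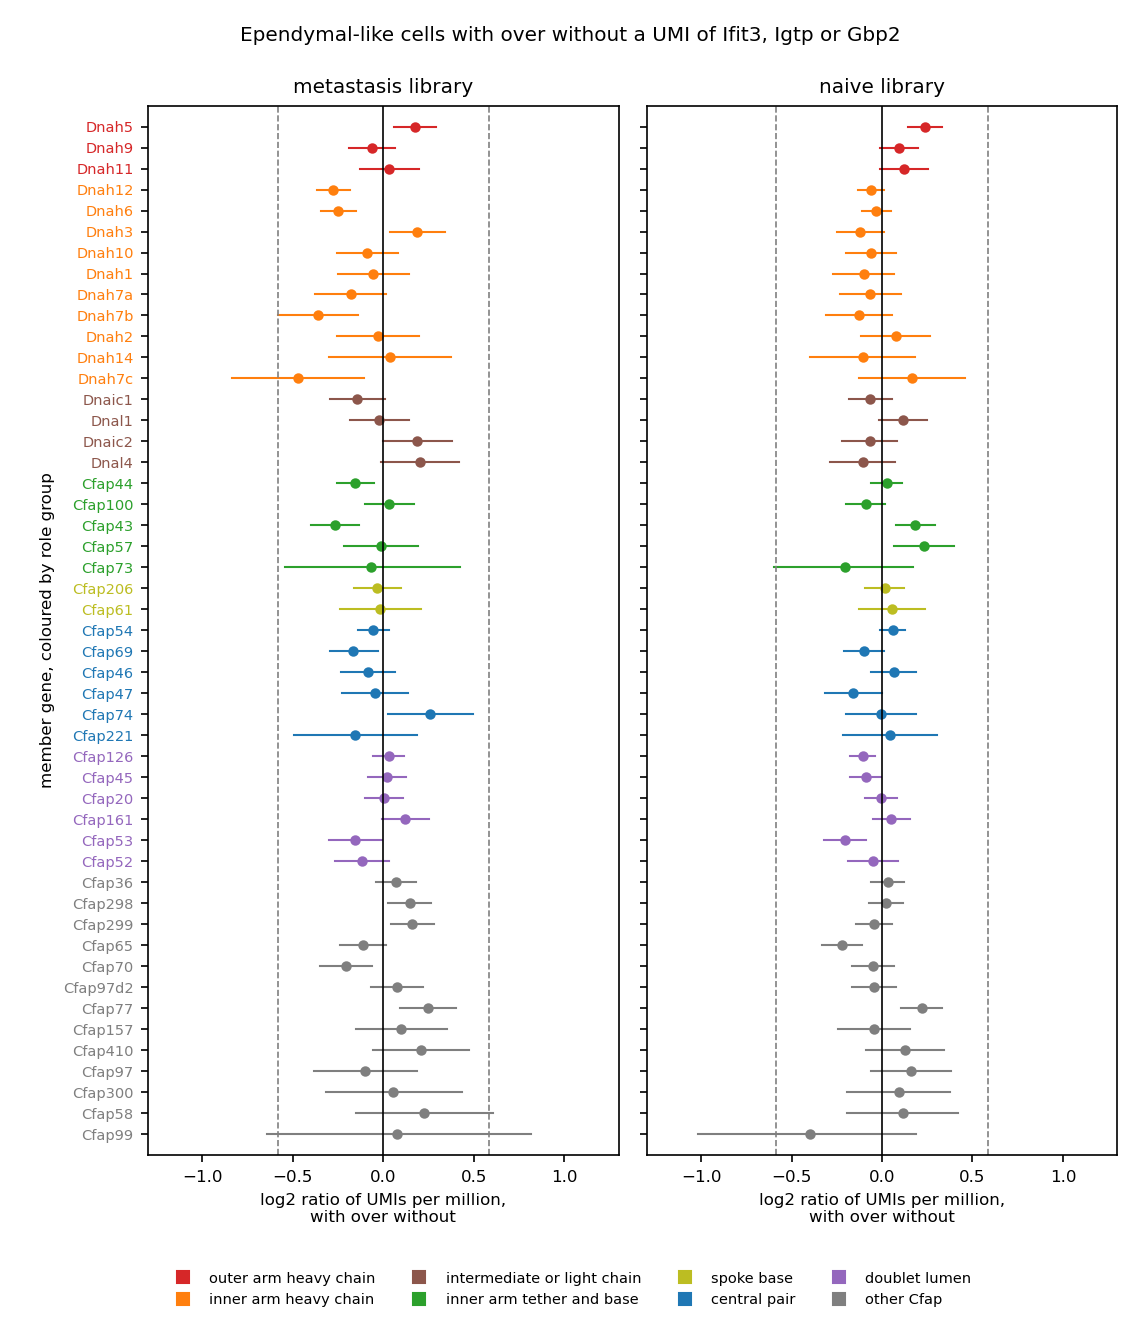
Log2 ratio of CPM in ependymal-like cells with over without a UMI of Ifit3, Igtp or Gbp2, for 49 members (rows, coloured by role) in the metastasis and naive libraries; points are ratios, bars are 95% counting intervals and dashed lines mark 1.5-fold. All points lie near 0, with Dnah7c lowest in metastasis at -0.47 and Cfap99 lowest in naive at -0.40.

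Of the related genes, Tppp3, a tubulin-binding protein, was at 0.30 (0.22 to 0.38) in cells with over without an interferon gene in metastasis and Foxj1 at 0.09 (0.01 to 0.18). Rfx4 was at 0.48 (0.33 to 0.64) in naive, and Trp73, a regulator of multiciliated cells, at 0.36 (0.14 to 0.58). In metastasis, the split also separated the wider interferon list, at 14708 against 3301 CPM in sum. Of its 51 genes, 48 were higher in cells with an interferon gene, against 5.43% of all genes. Since the split uses 3 of those genes, that count describes the split.

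Member levels also varied between the ependymal-like clusters. Cluster 2, which interferon genes led, held 808 cells in metastasis and 13 in naive, and its members summed to 9907 and 10085 CPM. Cluster 3 (442 and 1118 cells) summed to 9344 CPM (9199 to 9491), the lowest of the 4 in metastasis, and to 9482 (9399 to 9566) in naive. Cluster 14 (567 and 1255 cells) had the highest sums in both libraries, 10546 (10411 to 10682) and 10493 (10413 to 10574). Dnah14 stood apart in cluster 14: there it stood at 23.5 CPM in metastasis and 24.2 in naive, against 46.6 and 48.8 in the other ependymal-like clusters, log2 ratios of -0.99 (-1.44 to -0.55) and -1.02 (-1.304 to -0.73). Dnah14 was the only member at least 1.5-fold lower in cluster 14, in each library, where 14.2% and 12.6% of all genes were. Cfap99 was the only member at least 1.5-fold higher there in metastasis, from 34 against 41 UMIs (5.15% of all genes; in naive 0 members, 5.93%). In cluster 3, Cfap99 was the only member at least 1.5-fold lower in metastasis (10.9% of all genes) and 0 were higher (7.83%), and in naive 0 of 49 passed (9.12% lower, 7.2% higher). Dnaic2 was also lower in cluster 14, at -0.30 (-0.51 to -0.08) and -0.39 (-0.54 to -0.25), and higher in cluster 3, at 0.36 (0.15 to 0.57) and 0.51 (0.37 to 0.65). Cfap47 was lower in cluster 3, at -0.54 (-0.79 to -0.29) and -0.39 (-0.54 to -0.24). The clusters were made from these cells without the members, and no test of a cluster against the rest was made.

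Cluster 15 (494 and 809 cells) summed to 9885 CPM (9671 to 10101) in metastasis, near the 9962 of all ependymal-like cells, and to 9385 (9229 to 9543) in naive, the lowest of the 4 clusters there. Its mix of members differed, broadly in the order of transcript length, which here largely follows gene family. Its cells were shallow, with medians of 1378 and 1444 UMIs, rich in mitochondrial UMIs (medians of 6.86% and 6.78%, against 2.91% and 3.40% in all ependymal-like cells) and in the nuclear RNA Malat1 (69160 and 64511 CPM, against 38085 and 37498). Of 22 members with a longest transcript under 3000 bases, 19 in metastasis and 20 in naive were lower in cluster 15 than in the other ependymal-like clusters, 9 in each by at least 1.5-fold, with median log2 ratios of -0.53 and -0.46. Of 16 members of 8000 bases or more, 15 and 14 were higher, 5 and 3 by at least 1.5-fold, with medians of 0.45 and 0.31. Over all genes, 17.7% were lower and 20.4% higher by that rule in metastasis, and 14.3% and 17.2% in naive. The members of 8000 bases or more were Dnah genes besides Cfap46, Cfap47 and Cfap54, and those under 3000 bases were Cfap, Dnaic or Dnal genes. Length and family thus cannot be fully told apart. Dnah genes summed to 3310 and 3057 CPM in cluster 15, against 2541 and 2561 in all ependymal-like cells. Cfap genes summed to 6090 and 5833 CPM, against 6842 and 6799.5.

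Single genes show the size of these differences. Cfap77, with a longest transcript of 1759 bases, stood at 97.9 CPM in cluster 15 and 211 in the others in metastasis, a log2 ratio of -1.11 (-1.45 to -0.79), and at -1.23 (-1.49 to -0.99) in naive. Cfap161 was at -1.18 (-1.48 to -0.90) and -0.86 (-1.06 to -0.66), Cfap299 at -1.10 (-1.37 to -0.84) and -0.84 (-1.03 to -0.66), and Cfap298 at -1.06 (-1.31 to -0.81) and -0.95 (-1.14 to -0.78). At the other end, Dnah7b was at 0.97 (0.68 to 1.24) in metastasis, Dnah14 at 0.87 (0.42 to 1.29) and 0.82 (0.47 to 1.16), and Cfap46 at 0.84 (0.64 to 1.03) and 0.58 (0.42 to 0.74). The summed inner arm heavy chains stood at 2481 against 1705 CPM in metastasis and 2265 against 1772 in naive.

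Across the 49 members, the log2 ratio and log2 length had Pearson's r of 0.76 in metastasis and 0.67 in naive (Spearman's rho 0.75 and 0.66). The points share 1 library and 1 set of cells each, so this is a description. In the comparisons of clusters 2, 3 and 14 with the rest, over 48 or 49 members, r lay between -0.40 and -0.12. The rest included cluster 15 each time, and its part in these values was not tested. For cells with over without an interferon gene, r was -0.41 in metastasis (rho -0.39) and 0.18 in naive (rho 0.16), over 49 members. Between the libraries over all ependymal-like cells it was 0.25 (50 members). Choroid plexus markers summed to 13757 and 24341 CPM in cluster 15 and red blood cell markers to 1982 and 2135, against 256 and 449 in all ependymal-like cells. The part of depth, RNA quality, free RNA and gene family in the length pattern was not tested.

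**Figure D4:**
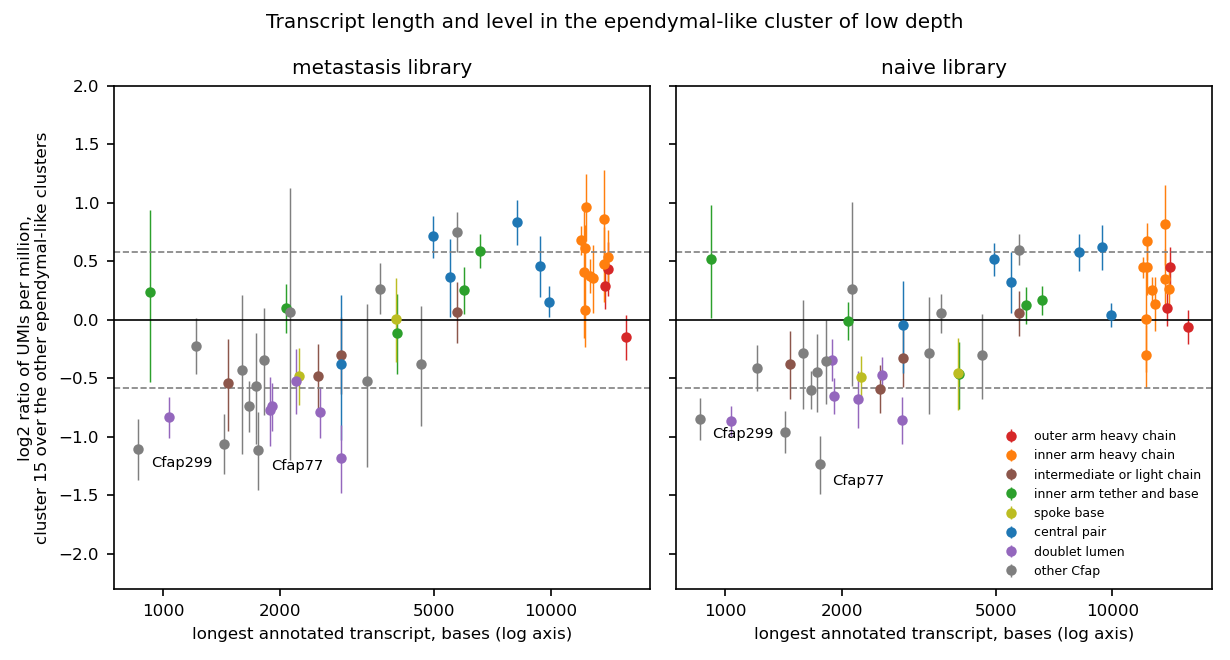
Log2 ratio of CPM in ependymal-like cluster 15 over the other ependymal-like clusters (y axis, with 95% counting intervals) against the longest annotated transcript in bases (x axis, log scale) for 49 members in each library, coloured by role; dashed lines mark 1.5-fold. Short-transcript members such as Cfap77 lie below 0 and most members of 8000 bases or more lie above it.

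Choroid plexus epithelium-like cells (267 and 541 cells) held the members unevenly. Levels there are given as a percent of the ependymal-like level of the same library for 48 members with at least 100 UMIs in ependymal-like cells of each library. The lowest 8 members were under 2% in both libraries, among them Dnah5 at 0.563% in metastasis and 0.219% in naive, Dnah12 at 0.409% and 0.402%, Dnah3 at 0.452% and 0.757%, Cfap46 at 0.923% and 0.789%, and Cfap100 at 1.26% and 0.492%. In contrast, Dnah9 stood at 9.66% and 9.93%, Dnah11 at 12.2% and 11.8%, Dnah2 at 10.6% and 11.5%, and Dnah6 at 7.33% and 7.52%. The outer arm chains Dnah5 and Dnah9 thus stood far apart in this measure, with 6 and 5 UMIs of Dnah5 against 85 and 188 of Dnah9. In free RNA, Dnah5 stood at 19.5 and 40.5 CPM and Dnah9 at 50.6 and 44.2.

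At the other end, 7 members reached at least 20% in both libraries: Cfap36 (42.0% and 37.9%), Cfap298 (40.7% and 33.8%), Cfap97, Cfap410, Cfap69 (32.1% and 25.1%), Dnah7b (29.0% and 22.002%) and Dnal4 (20.9% and 21.7%). Cfap69, a central pair gene, stood at 77.8 CPM (256 UMIs) and 61.6 (451 UMIs), above its free RNA levels of 27.3 and 51.6. Cfap46, another central pair gene, stood at 1.82 and 1.502 CPM. Members at or above free RNA in both libraries were Cfap69, Cfap53, Dnah7b, Cfap47 and Cfap61. The list depends on the barcodes taken as free RNA: against those of 100 to 300 UMIs, Cfap53 (71.9% and 40.4% of free RNA) and Cfap61 (119.8% and 82.9%) dropped out, and of the 48 members Cfap65 (138% and 104.6%) and Cfap74 (129% and 100.7%) came in. Between the libraries, 2 of 39 members with at least 20 UMIs were lower and 3 higher in metastasis, where 3.81% and 9.11% of all genes were.

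The melanoma-like cells, 694 cells of the metastasis library with a median of 29816 UMIs and all 9 melanoma markers, held 36 of those 48 members at under 2% of the ependymal-like level. The median was 0.653%. Dnaic1 was not among those: it stood at 62.7 CPM (59.3 to 66.1, 1318 UMIs), which is 33.0% of its ependymal-like level and above its free RNA level of 38.9. The melanoma-like cells held 43.1% of all Dnaic1 UMIs in kept cells of that library. The intermediate chain that pairs with it, Dnaic2, stood at 2.33 CPM, 1.86% of its ependymal-like level. Dnaic1 was found in 73.5% of melanoma-like cells, and in 6.48% after thinning to 1000 UMIs, against 0.440% of thinned oligodendrocyte-like cells of the same library, whose median depth was 2740 UMIs.

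Cfap54 stood at 70.7 CPM in melanoma-like cells (1486 UMIs), 11.9% of its ependymal-like level and below its free RNA level of 97.3, while Cfap46 of the same structure was at 0.84%. A level below free RNA does not show that it came from free RNA: Dnah12, at 35.0 CPM in free RNA, stood at 1.38 CPM in these cells. How much of each level was free RNA was not tested. Broadly expressed members were also present: Cfap36 at 138 CPM (free RNA 136), Cfap20 at 82.4 (free RNA 117), Cfap298 at 74.98 (free RNA 85.6), Cfap410 at 51.5 (free RNA 31.1), Dnal4 at 42.7 (free RNA 35.04) and Cfap97 at 27.8 (free RNA 11.7). Dnah7b, at 18.5 CPM (390 UMIs, free RNA 7.79), was the only heavy chain of the 8 members that reached 20% of the ependymal-like level. The naive library had 19 cells in this cluster, and 0 of them shared a barcode with the metastasis library.

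**Figure D5:**
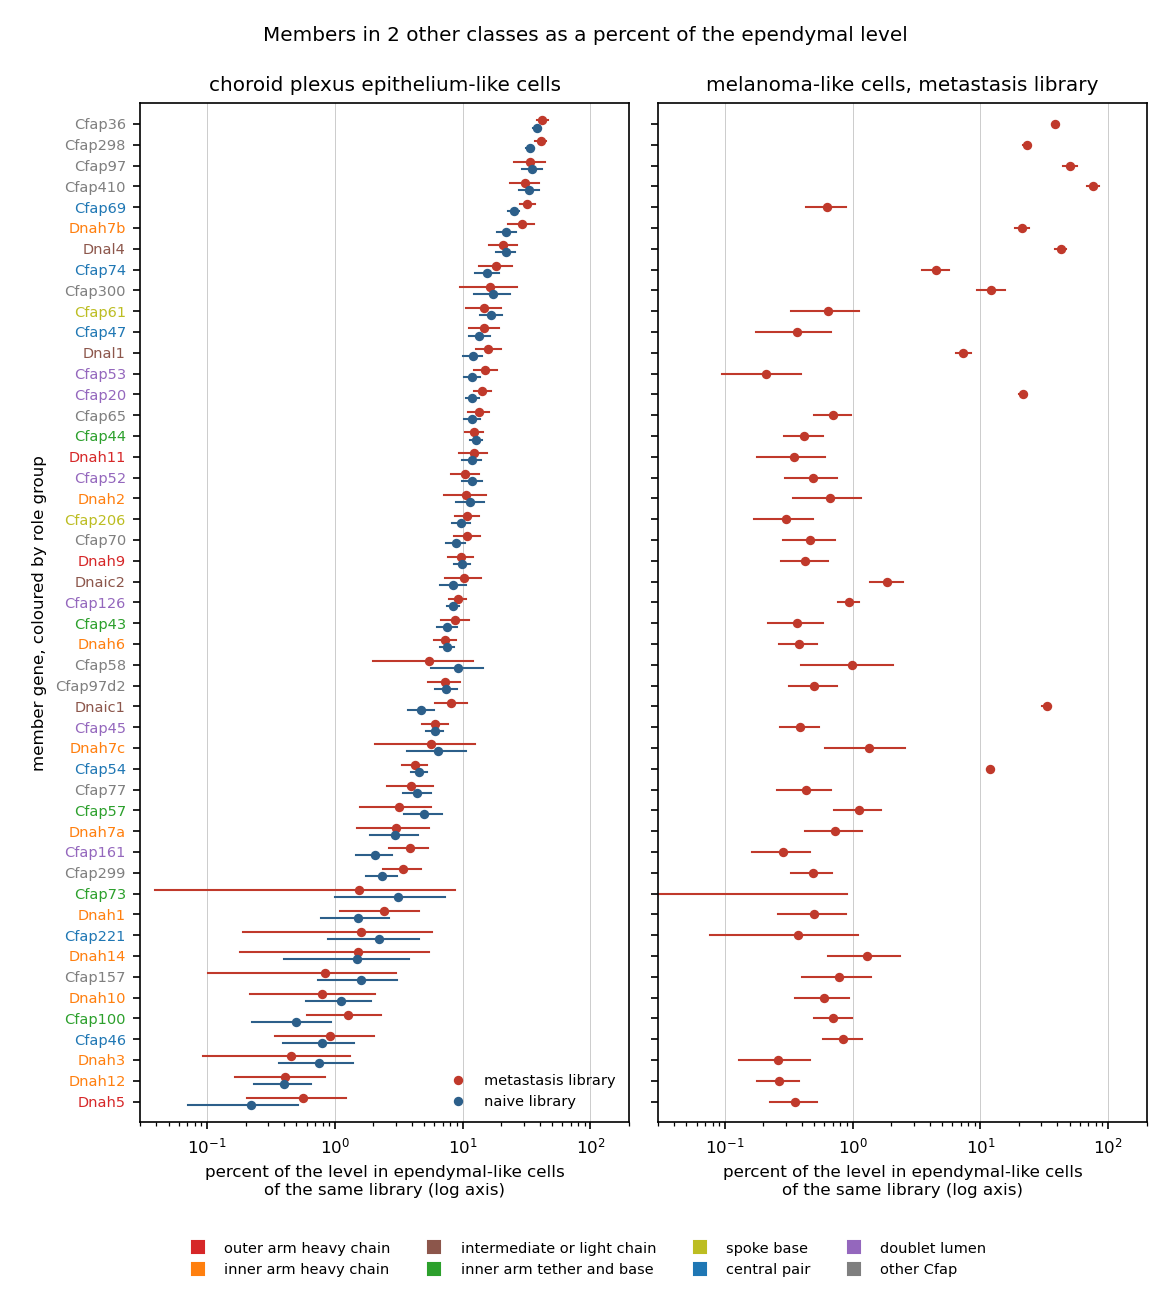
Level of 48 members (rows, coloured by role) in choroid plexus epithelium-like cells of both libraries and in melanoma-like cells of the metastasis library, as a percent of the ependymal-like level of the same library on a log axis, with 95% counting intervals cut at 0.03%. Dnah5, Dnah12 and Dnah3 lie lowest in choroid plexus epithelium-like cells, and Dnaic1 stands at 33.0% in melanoma-like cells.

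Of the 50 members with at least 20 UMIs, Dnah8 was the one that ependymal-like cells did not lead by the mean of the libraries. In olfactory ensheathing-like cells, glia of the olfactory nerve, it had 45 UMIs in metastasis (24.2 CPM) and 57 in naive (21.9 CPM), against 1.11 and 0.85 CPM in ependymal-like cells and 0 UMIs in free RNA of both libraries. It was higher in cluster 18 of this class, at 41.4 (28.2 to 58.8) and 31.8 (22.0001 to 44.4) CPM, than in cluster 7, at 12.6 (6.88 to 21.1) and 15.03 (9.53 to 22.6). T/NK-like cells came second by the mean of the libraries, at 11.3 CPM, from fewer than 20 UMIs over both. Oligodendrocyte-like cells held 2.18 and 2.58 CPM. These are low counts: in cluster 18 they came from 30 cells in metastasis and 32 in naive.

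A few other members stood above free RNA in both libraries outside the ependyma. Dnah7b did so in astrocyte-like cells (20.3 and 26.8 CPM against 7.79 and 14.7 in free RNA), with 12 and 54 UMIs. Cfap97 did so in neuroblast-like cells (48.6 and 59.7 CPM) and endothelial-like cells (28.6 and 53.1). Cfap74 stood at 18.1 and 25.8 CPM in microglia-like cells, against 15.6 and 18.4 in free RNA, a small margin from 15 and 29 UMIs. Besides Dnah8, Cfap20 and Cfap410 did so in olfactory ensheathing-like cells, at 121 and 127 and at 48.9 and 46.5 CPM, and Dnah7b at 12.9 and 14.996 against 7.79 and 14.7 in free RNA.

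Between libraries, of the 5 classes compared, neuroblast-like cells had the most members lower in metastasis, 14 of 29 with at least 20 UMIs against 10.3% of all genes, with 2 higher against 9.92%. The median log2 ratio of the 29 was -0.51, against 0.02 over all genes. Of the members detected best there, Cfap298 was at -0.40 (-0.90 to 0.09), Cfap97 at -0.30 (-0.89 to 0.29), Cfap36 at -0.22 (-0.58 to 0.14), Cfap20 at 0.17 (-0.26 to 0.61) and Dnal4 at 0.29 (-0.30 to 0.89). Cfap126, the highest member in ependymal-like cells, was at -1.47 (-2.28 to -0.72) in neuroblast-like cells, and Cfap44 at -0.84 (-1.64 to -0.09). Free RNA held less of the members in metastasis as well, 1643 against 2299 CPM, and its part in this difference was not tested. In oligodendrocyte-like cells 8 of 46 members were lower and 1 higher (5.01% and 8.75% of all genes), and in astrocyte-like cells 7 and 5 of 34 (9.62% and 9.29%).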

How the data were processed

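The authors deposited UMI counts per gene and barcode for 2 libraries of 10x 3′ single-cell RNA, with 55401 genes each. STARsolo and the build GRCm38 are named in the submitters' processing notes; the version, the annotation and the strand and multi-mapping settings are not given in the sources used here. Gene positions came from GENCODE M21 on GRCm38, which held all 53 members.

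Barcodes were kept from 1000 UMIs and 500 genes upward, with up to 20% mitochondrial UMIs, 13745 in metastasis and 13995 in naive. Doublets were called with scrublet in scanpy 1.11.5. Its automatic threshold marked 0 cells in metastasis, so a threshold of 0.2, set after seeing the scores, was used for both and removed 5.00% and 6.35%. Cells were clustered (2000 variable genes without the members and cilia lists, 30 principal components, Leiden resolution 1, igraph 0.11.9, Python 3.11.15), and clusters were named from marker lists. The interferon list was left out of the 10 leading genes used for naming, a choice made after seeing the clusters. Class names are rebuilt here and may differ from the study's own.

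UMIs were summed per class and library and scaled to the class total as CPM. Intervals are exact Poisson, binomial or Clopper-Pearson intervals (scipy 1.17.1). Ratios needed 20 UMIs over both sides together. With 1 library per group no test was made. Genes named are those with the largest ratios in each direction and the members of each role. The code for ratios and intervals was tested on simulated data. The members and lists were chosen with earlier results of these data known. Alternatives are given in the closing section, and those that leave out a cluster or shared barcodes, or rescale by ubiquitous genes or without Malat1, were chosen after seeing the data.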

Additional observations from a re-analysis of the deposited data

Results flagged for a closer look

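Cfap43, which encodes a part of the inner arm tether, stood on opposite sides in the 2 libraries when ependymal-like cells with an interferon gene were compared with those without. Its log2 ratio was -0.27 in metastasis (218 against 262 CPM) and 0.18 in naive (259 against 227), and both counting intervals excluded 0. Within cluster 3 the Cfap43 ratios were 0.03 and 0.27, within cluster 14 they were -0.35 and 0.23, and within cluster 15 they were 0.03 in both libraries. The difference between the libraries was not tested, since each group is 1 library.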

How the results depend on the processing

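The summed member level in ependymal-like cells moved beyond its counting interval in several settings. In metastasis it was 9962 CPM and became 9620 (9619.69) without doublet removal, 9885 at a clustering resolution of 0.5, 10148 with each cell named by its own markers, 11348 after subtracting free RNA, 10145 as a mean over cells, 10068.5 with totals without the interferon list, 10124.5 without cluster 3, 9742 without cluster 14 and 10356 with totals without Malat1. In naive it was 9959 and became 10016 at 10% mitochondrial UMIs, 9648 without doublet removal, 10123 by own markers, 11406 after subtracting free RNA, 10057 as a mean over cells, 10280.0 without cluster 3, 9466.87 without cluster 14, 10032 without cluster 15 and 10347 without Malat1. The log2 ratio of metastasis over naive (0.0004) became 0.01 (0.0131) without the interferon list, -0.02 (-0.0220) without cluster 3 and 0.04 (0.0413) without cluster 14. The log2 ratio of cells with over without an interferon gene in metastasis (-0.03) became -0.00874 at resolution 0.5, -0.06 (-0.0566) scaled to 12 ubiquitous genes, and turned to 0.00107 among cells of 2000 to 5000 UMIs and to 0.00647 without cluster 14. The cause was not tested. The count of members at least 1.5-fold lower between the libraries stayed at 0 in all settings run; with over without an interferon gene it was 1 with the split by Igtp alone (Cfap99) and without cluster 2 or cluster 3 (Dnah7c). A member at least 1.5-fold higher appeared in 3 settings: Dnah8 between the libraries as a mean over cells, Cfap300 in thinned cells and Cfap99 without cluster 14. No paired analysis was possible because each group is 1 library. Members with few UMIs, such as Dnah8, Cfap99 and Cfap73, have intervals too wide to place within 1.5-fold in the smaller clusters.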
